A study of Mus musculus with 36 samples.

Results

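HFD-75% and HFD-U, the exercise groups that ran the farthest, were compared. The members were taken by the treatment label of each sample, which gave 12 of the 36 mice of the series, 6 in each group. All 12 were male C57BL/6 mice of WT genotype, 3 to 4 weeks old at the start, and for 12 weeks all ate a high-fat diet (HFD) that drew 45% of its energy from fat. HFD-U mice could use the wheel in their cage at will, and their mean distance was 8.3 km/day. HFD-75% mice averaged 6.3 km/day, because a programmable brake was released when the lights went off and applied again once a mouse had run its daily distance. Distance and the hours with a free wheel thus differed together between the groups and cannot be told apart. The hour at which each muscle was taken is not given in the sources used here. RNA came from 1 gastrocnemius, the large calf muscle, of each mouse and was sequenced from poly(A)-selected libraries. The other 24 mice were in 4 groups, sedentary on a normal-fat diet (NFD-C) or on the HFD (HFD-C), or running 25% or 50% of the free distance on the HFD, and they are used here only to show where the 2 groups lie.

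Muscle fibres keep a circadian clock. The activators BMAL1, whose gene is listed under its older symbol Arntl, and CLOCK switch on the Per, Cry, Nr1d and Dbp genes through E-box sequences. The products of the Per, Cry and Nr1d genes shut the activators down again, and Arntl and Dbp peak at opposite times of day. Muscle also changes its fuel use with feeding and running. Fatty acids act through PPAR receptors on genes such as Angptl4 and Pdk4, and the FOXO transcription factors and glucocorticoids raise genes of fasting and of protein breakdown, among them the ubiquitin ligases Trim63 and Fbxo32.

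At an unadjusted p of 0.05, HFD-75% mice had less RNA than HFD-U mice of 10 of the 13 clock genes that peak with Dbp and more of Arntl, Angptl4, Pdk4, Klf10 and 8 of 32 FOXO and atrophy genes. The smallest p-values were those of Ciart, a repressor of CLOCK and BMAL1, which was 3.73 times as high in HFD-U as in HFD-75%, and Angptl4, an inhibitor of lipoprotein lipase, which was 2.87 times as high in HFD-75%. Across all 11841 genes tested, the groups were close. No gene passed an adjusted p of 0.05 in the quasi-likelihood test of edgeR (Benjamini-Hochberg), and the smallest adjusted p was 0.0644. With the unadjusted p held to 0.05 or less, 659 genes (5.57% of those tested) differed, of which 318 (2.69%) were higher and 341 (2.88%) were lower in HFD-75%, where 5% of the genes would be 592. DESeq2 placed 23 genes past an adjusted p of 0.05 and limma-voom none, with 727 and 671 genes at the unadjusted threshold. Without HFD-75% replicate 1, 996 genes were at the unadjusted threshold, 547 of them lower in HFD-75%, and 4 passed the adjusted one (Ciart and Coq10b among them). All counts of genes called higher or lower below are at the unadjusted threshold, and where no adjusted p is printed for a gene it was above 0.05.

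The median log2 fold change over all genes tested was 0.0066, and the middle 90% of them lay between -0.34 and 0.34. Of the 659 genes, 42 differed at least 2-fold, 25 higher and 17 lower in HFD-75%. The values of the 6 mice of one group did not overlap those of the other in 52 genes (0.439%), 26 in each direction (0.22% each). Libraries held 14495389 to 22633484 counts in HFD-75% and 14611063 to 17757846 in HFD-U. The share of counts on mitochondrially encoded mRNA was 14.6% ± 2.13 (SD, n = 6) in HFD-75% and 16.6% ± 3.36 in HFD-U (exact permutation test, two-sided, p = 0.242, adjusted p = 0.416 over 3 library measures). The share on rRNA-linked features was 0.599% ± 0.151 and 0.540% ± 0.0647 (n = 6 each, exact permutation p = 0.416). One library stood apart in fibre-type genes, HFD-75% replicate 1, and another in clock and FOXO genes, HFD-75% replicate 5. Calls were followed over 12 fits that each left out 1 mouse, but only for part of the genes. These were the genes of the naming rule and the called members of the clock, FOXO, glucocorticoid and PPAR lists. Where such a gene lost its call, the number of fits it passed or the mouse that decided it is given. Other called genes, such as Zfp36, Rbpj, Lrp4, Egfl7 and Cldn5, were not followed. For them the absence of a number does not mean a stable call.

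The bases just before the start of 4 of these genes are shown because they hold, within 250 bases, letters that clock proteins or FOXO factors are known to bind. They are RefSeq sequences on GRCm38.p6, read along the gene's strand, with matches in capitals. Ciart (chr3:95882229-95882478, minus strand) and Bhlhe41 (chr6:145865421-145865670, minus strand) have the E-box CACGTG, Per3 (chr4:151044666-151044915, minus strand) has the D-box TTANGTAA, read by DBP, TEF and HLF, and Trim63 (chr4:134314870-134315119, plus strand) has the FOXO site GTAAACA on its other strand. Trim63 also holds, not in capitals, the glucocorticoid half-site pair ACANNNTGT.
Ciart: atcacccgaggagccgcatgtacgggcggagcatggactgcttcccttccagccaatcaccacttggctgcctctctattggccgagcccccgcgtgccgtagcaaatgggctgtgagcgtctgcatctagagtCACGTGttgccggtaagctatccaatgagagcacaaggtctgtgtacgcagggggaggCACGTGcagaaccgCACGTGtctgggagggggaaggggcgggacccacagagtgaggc
Bhlhe41: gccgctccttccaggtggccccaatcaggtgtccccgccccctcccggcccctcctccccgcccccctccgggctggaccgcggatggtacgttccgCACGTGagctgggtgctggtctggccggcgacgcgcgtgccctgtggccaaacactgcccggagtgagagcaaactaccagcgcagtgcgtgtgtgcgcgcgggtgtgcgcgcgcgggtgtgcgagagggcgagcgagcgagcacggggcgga
Per3: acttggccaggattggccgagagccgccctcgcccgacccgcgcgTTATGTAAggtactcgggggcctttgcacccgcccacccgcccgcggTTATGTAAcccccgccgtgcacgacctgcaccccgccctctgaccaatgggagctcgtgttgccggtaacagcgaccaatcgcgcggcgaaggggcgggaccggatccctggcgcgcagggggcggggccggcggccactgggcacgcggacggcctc
Trim63: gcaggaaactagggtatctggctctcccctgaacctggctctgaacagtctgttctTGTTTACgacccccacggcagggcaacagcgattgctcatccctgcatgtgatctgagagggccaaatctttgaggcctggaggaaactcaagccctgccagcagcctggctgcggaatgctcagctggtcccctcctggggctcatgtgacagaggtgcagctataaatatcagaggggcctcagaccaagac

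Each motif was searched on both strands in the 250 bases before the start of 32851 promoters. CACGTG reads the same on both strands and was found in 6.02% of them, TTANGTAA or its complement in 2.06%, GTAAACA or its complement in 3.17%, ACANNNTGT, which also reads the same on both strands, in 5.84%, and the ROR site AGGTCA, read by the ROR and NR1D receptors, in 14.0%. Of the 10 clock genes of the Dbp phase that were lower in HFD-75%, 9 had a promoter in the table, among them Nr1d1, whose window held none of the motifs and whose start was not found in the GENCODE transcripts used. The E-box was present in 4 of the 9 (Ciart, Bhlhe41, Per1 and Tef), the ROR site in 2 (Per1 and Nr1d2) and the D-box in 1 (Per3). Of the 9 called FOXO and atrophy genes, 5 had a promoter, and the FOXO site and the glucocorticoid pair were found in 1, Trim63. These matches describe the letters in the window and not binding. There was no promoter entry for Angptl4, Klf10 or Bhlhe40.

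Of the 13 clock genes that peak with Dbp, all 13 were tested, 10 were lower in HFD-75% and none was higher, where 2.88% of all genes were lower. Their median log2 fold change was -0.47, against 0.0066 over all genes. The 10 were Ciart, Nr1d1, Bhlhe40, Bhlhe41, Dbp, Per3, Hlf, Nr1d2, Tef and Per1, and of the 13 only Cry2 had a fold change above 0. Hlf, Nr1d2, Tef and Per3 fell outside the rule by which genes were named and are given because their values were called.

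Ciart (chromosome 3, 95785812 to 95789775, minus strand, in the GRCm39 coordinates of the deposited table) ranged from 2.07 to 7.65 counts scaled to the library size (CPM) in HFD-75%, with a median of 4.32, and from 12.5 to 26.8 in HFD-U, with a median of 14.6. Every HFD-75% mouse was below every HFD-U mouse. The log2 fold change was -1.90 (SE 0.28, adjusted p = 0.0644), with means of 4.66 ± 1.96 and 17.3 ± 5.93 CPM. Nr1d1, which encodes the repressor REV-ERBα, ranged from 13.103 to 37.5 CPM (median 26.4) in HFD-75% and from 34.4 to 118 (median 70.7) in HFD-U. Only HFD-75% replicate 1, at 37.5, reached into the HFD-U range, and the log2 fold change was -1.51 (SE 0.28, adjusted p = 0.160). Nr1d1 (chromosome 11, 98658758 to 98666233) shares 1075 bases with Thra on the other strand, whose own means were 44.4 and 47.1 CPM. Shared bases, here and below, are counted over whole genes from start to end, introns included, and the overlap of exons was not measured. How the counting treated strand is not given in the sources used here, so reads from any shared exons cannot be assigned.

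Bhlhe40 and Bhlhe41 encode DEC1 and DEC2, which compete for E-boxes. Bhlhe40 ranged from 43.2 to 76.2 CPM (median 51.9) in HFD-75% and from 68.2 to 165 (median 106) in HFD-U, for a log2 fold change of -0.97 (SE 0.20, adjusted p = 0.229). Bhlhe41 ranged from 29.0 to 53.8 CPM (median 50.1) and from 56.4 to 117 (median 79.1), a log2 fold change of -0.79 (SE 0.18, adjusted p = 0.407). For Bhlhe41 the groups did not overlap, and for Bhlhe40 5 of the 6 HFD-75% mice were below all HFD-U mice.

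Dbp, the PAR bZIP factor that gives the phase its name, ranged from 18.3 to 84.6 CPM (median 63.0) in HFD-75% and from 92.4 to 128 (median 118) in HFD-U. The groups did not overlap, and the log2 fold change was -0.96 (SE 0.26, adjusted p = 0.506). Dbp overlaps Sphk2 on the other strand by 741 bases, and Sphk2 had means of 13.4 and 10.6 CPM, higher in HFD-75%. The other PAR bZIP factors differed less. Hlf had means of 13.0 ± 2.98 and 18.0 ± 2.73 CPM (log2 fold change -0.47, SE 0.15, adjusted p = 0.635), and Tef, the most abundant of the 3, had 315 ± 23.9 and 370.0 ± 30.4 (log2 fold change -0.23, SE 0.09, adjusted p = 0.781). In Hlf 4 and in Tef 5 of the 6 HFD-75% mice lay below all HFD-U mice, and Tef passed in 10 of the 12 fits without 1 mouse.

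The period genes all had a lower mean in HFD-75%. Per3 ranged from 17.8 to 54.3 CPM (median 45.7) in HFD-75% and from 44.9 to 80.2 (median 65.7) in HFD-U (log2 fold change -0.71, SE 0.22, adjusted p = 0.558). Per1 had means of 82.2 ± 13.4 and 100.3 ± 16.8 CPM and was at the edge of the threshold (unadjusted p = 0.0499, log2 fold change -0.29, SE 0.13), passing in 4 of the 12 fits without 1 mouse. Per2 had 28.4 ± 4.77 and 32.3 ± 5.16 CPM and did not pass (log2 fold change -0.19, SE 0.13). Whether the fold changes of Per1, Per2 and Per3 differ from each other was not tested. Nr1d2, which encodes REV-ERBβ, was lower by 0.29 on the log2 scale (138 ± 13.0 against 168 ± 15.8 CPM, adjusted p = 0.635). Neither Cry2 (46.5 ± 7.09 and 45.7 ± 8.58 CPM) nor Usp2 (114 ± 40.5 and 129 ± 30.7 CPM) passed.

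**Figure D1:**
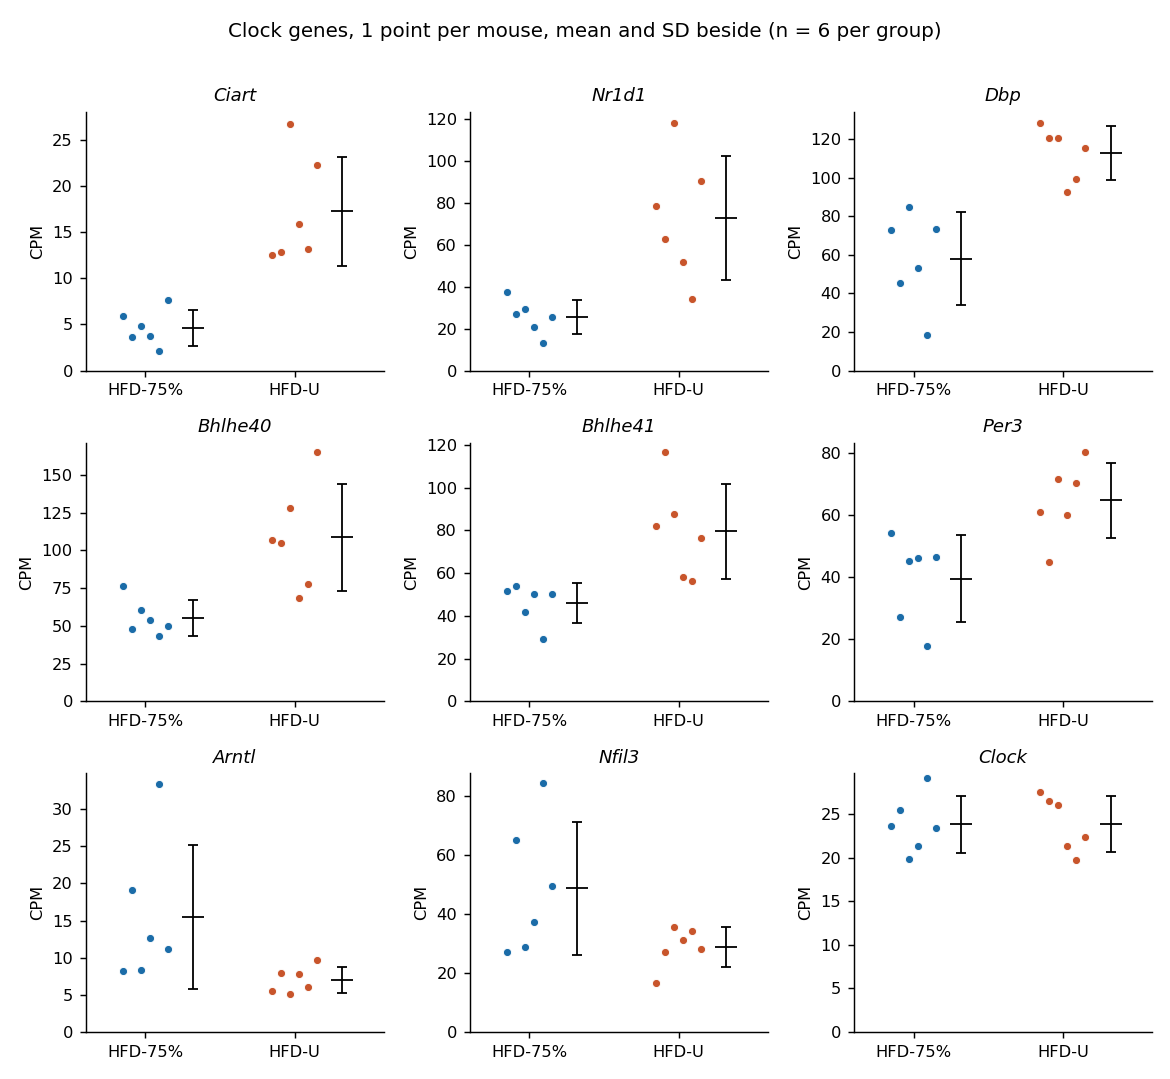
CPM (vertical axis, from 0) of 6 clock genes of the Dbp phase and 3 of the Bmal1 phase, with 1 point per mouse and the mean ± SD (n = 6) beside the points of HFD-75% (left) and HFD-U (right). The groups do not overlap for Ciart, Dbp and Bhlhe41, while Arntl overlaps because 2 HFD-75% mice, at 8.23 and 8.28 CPM, lie below the highest HFD-U mouse, at 9.62.

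Arntl and Nfil3, of the opposite phase, went the other way. Of 7 genes of this phase listed in the table, 5 were tested, and 2 were higher in HFD-75% (Arntl and Nfil3), none was lower, and Clock, Cry1 and Rora did not pass, where 2.69% of all genes were higher. The median of the 5 was 0.18. Arntl (chromosome 7, 112777820 to 112913333) ranged from 8.23 to 33.4 CPM (median 11.9) in HFD-75% and from 5.08 to 9.62 (median 6.95) in HFD-U, and 4 of the 6 HFD-75% mice were above all HFD-U mice. Its log2 fold change was 1.15 (SE 0.32, adjusted p = 0.506), with means of 15.5 ± 9.65 and 7.01 ± 1.74. Nfil3, a repressor that competes with DBP for D-boxes, ranged from 27.0 to 84.3 CPM (median 43.5) and from 16.6 to 35.7 (median 29.6), a log2 fold change of 0.76 (SE 0.26, adjusted p = 0.679). Clock itself was nearly equal, at 23.8 ± 3.28 and 23.9 ± 3.22 CPM.

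Mouse-to-mouse spread in HFD-75% was shared by these genes. Replicate 5 had the lowest value of the 6 HFD-75% mice in 9 of the 10 called genes of the Dbp phase and the highest in both of the Bmal1 phase. Its Arntl level was 33.4 CPM, and its Dbp level was 18.3 CPM. Without it, 8 genes of the Dbp phase (not Per1 or Tef) and 2 of the Bmal1 phase were called, the log2 fold change of Arntl was 0.77 in place of 1.15, and that of Ciart was -1.74.

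Angptl4 headed the genes that were higher in HFD-75%, and it belongs to the PPAR-linked genes. It is made in muscle and fat when fatty acids are plentiful, and it blocks the uptake of fat from blood lipoproteins. Angptl4 (chromosome 17, 33993874 to 34000549, minus strand) ranged from 7.81 to 25.8 CPM (median 14.4) in HFD-75% and from 4.25 to 6.06 (median 5.21) in HFD-U. The groups did not overlap, and the spread was far wider in HFD-75% (means 14.8 ± 6.26 and 5.16 ± 0.75, log2 fold change 1.52, SE 0.24, adjusted p = 0.0644). Gm17251, a lncRNA that lies 13032 bases from Angptl4, ranged from 4.34 to 8.45 CPM in HFD-75% and from 1.95 to 3.73 in HFD-U, also without overlap (log2 fold change 0.95, SE 0.22, adjusted p = 0.407). Gm17251 shares 5233 bases with Rab11b on the other strand, whose means were 71.2 and 70.7 CPM.

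Pdk4, the kinase that switches off pyruvate dehydrogenase and so spares glucose, ranged from 1313 to 2650 CPM (median 1828) in HFD-75% and from 891 to 1294 (median 1170) in HFD-U. Here too the groups did not overlap, although the lowest HFD-75% mouse, at 1313, was close to the highest HFD-U mouse, at 1294. The log2 fold change was 0.77 (SE 0.18, adjusted p = 0.405). Of the 41 tested PPAR targets and genes of fatty acid oxidation, 5 were higher (Angptl4, Pdk4, Ucp3, Cpt1b and Plin4), none was lower and 36 did not pass, where 2.69% of all genes were higher. The median of the 41 was 0.15, and 37 of them had a fold change above 0. Nuclear respiratory subunits (65 of 84) and cytosolic ribosomal proteins (65 of 81) also lay mostly above 0, while collagens and matrix genes lay mostly below (26 of 35).

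Ucp3, an inner-membrane protein that goes with fat use, ranged from 276 to 628 CPM (median 476) and from 269.8 to 361 (median 348), and 5 of the 6 HFD-75% mice were above all HFD-U mice (log2 fold change 0.54, SE 0.17, adjusted p = 0.558). Plin4, a lipid droplet coat protein, had means of 738 ± 132 and 544 ± 70.4 CPM (log2 fold change 0.44, SE 0.13, adjusted p = 0.556). Cpt1b, listed at only 3.35 ± 0.756 and 1.88 ± 1.02 CPM, had a log2 fold change of 0.84 (SE 0.35, adjusted p = 0.822) and passed in 9 of the 12 fits without 1 mouse. None of the listed enzymes of the oxidation cycle itself passed. Of them, Acadm and Hadha had log2 fold changes of 0.16 and 0.17, near the list's median of 0.15. Cpt2 had 0.07 and the fatty acid transporter Cd36 had 0.08, with unadjusted p from 0.476 to 0.783 for the 4 genes. Ucp3, Cpt1b and these 4 were named after their values were seen.

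Of 32 FOXO and atrophy genes, all tested, 8 were higher in HFD-75% (Asb2, Trim63, Map1lc3a, Foxo1, Fbxo32, Gadd45a, Eif4ebp1 and Fbxo31) and 1, Foxo6, was lower, with 23 not passing, where 2.69% of all genes were higher and 2.88% lower. The median log2 fold change was 0.15, and 25 of the 32 were above 0. The groups overlapped in every member. Asb2, a ubiquitin ligase adaptor of muscle, ranged from 644 to 1601 CPM (median 1011) in HFD-75% and from 477 to 761 (median 617) in HFD-U, with only HFD-75% replicate 1 within the HFD-U range (log2 fold change 0.73, SE 0.19, adjusted p = 0.468). Asb2 shares 12135 bases, introns included, with the lncRNA Gm15523 on the other strand, at 5.43 and 2.98 CPM.

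Trim63, or MuRF1, ranged from 331 to 1811 CPM (median 686) in HFD-75% and from 226 to 529.7 (median 369.5) in HFD-U. Only 3 HFD-75% mice were above all HFD-U mice, and the means were 825 ± 553 and 375 ± 101 (log2 fold change 1.14, SE 0.35, adjusted p = 0.558). Fbxo32, or atrogin-1, ranged from 464 to 1561 CPM (median 655) and from 311 to 664 (median 424), with 3 mice above (log2 fold change 0.73, SE 0.30, adjusted p = 0.817). Foxo1, the transcription factor itself, ranged from 47.5 to 99.0 CPM (median 86.9) and from 18.5 to 66.8 (median 45.1), a log2 fold change of 0.83 (SE 0.31, adjusted p = 0.735). The other FOXO genes were at 33.7 ± 9.26 and 27.4 ± 4.79 CPM for Foxo3 and 137 ± 16 and 123 ± 14.0 for Foxo4, neither past the threshold. Map1lc3a, which coats autophagosomes, had a small and even difference, 181 ± 8.70 against 151 ± 14.98 CPM (log2 fold change 0.27, SE 0.09, adjusted p = 0.635).

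The count of atrophy genes moved with HFD-75% replicate 5, which had the highest value of the 6 HFD-75% mice in 5 of the 9 called members. Without it 5 members were higher, as without HFD-U replicate 1, 2 or 4, the log2 fold change of Trim63 was 0.74, and Fbxo32 (0.41), Gadd45a (0.36), Eif4ebp1 (0.28) and Foxo6 (-0.59) no longer passed. Foxo6 and Fbxo31 each passed in 3 of the 12 fits without 1 mouse, Eif4ebp1 in 4 and Fbxo32 in 8. In the joint fits over the 24 running mice and over the 30 mice on the HFD, 4 members were higher. Fbxo32 shares 8862 bases with the lncRNA Gm36112 on the other strand. Gm36112 was itself higher in HFD-75% with no overlap, from 2.03 to 8.60 CPM against 0.306 to 1.93 (log2 fold change 1.96, SE 0.46, adjusted p = 0.423). It was far less abundant than Fbxo32, and reads from any exons that the 2 genes share cannot be told apart without the strand setting.

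**Figure D2:**
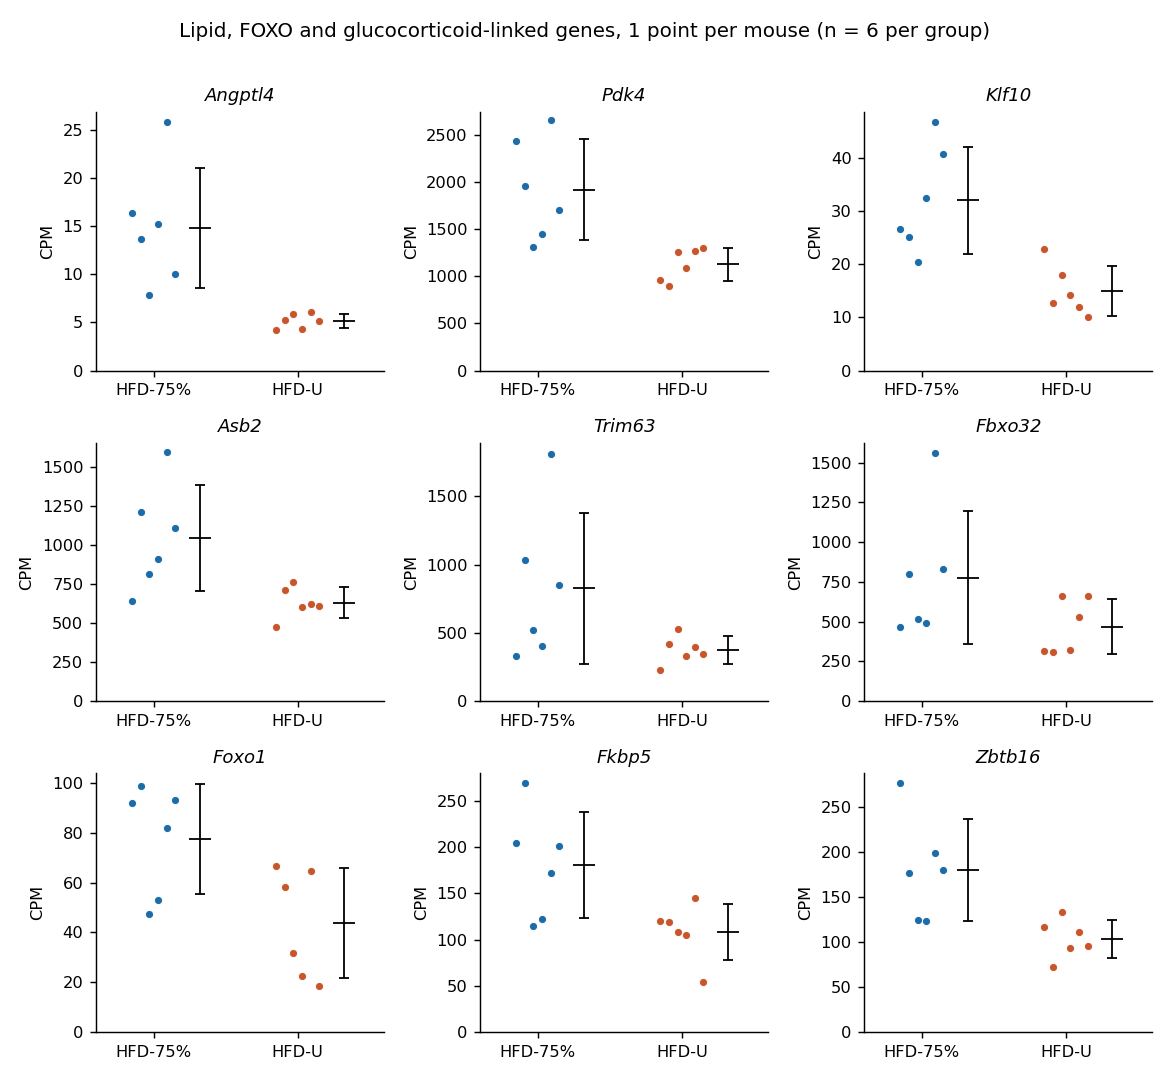
CPM (vertical axis, from 0) of 9 lipid, FOXO and glucocorticoid-linked genes, with 1 point per mouse and the mean ± SD (n = 6) beside them for HFD-75% (left) and HFD-U (right). Angptl4 and Pdk4 separate the groups, while in Trim63 and Fbxo32 the highest point, HFD-75% replicate 5 at 1811 and 1561 CPM, stands well above the rest.

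Of 24 tested glucocorticoid response genes, 5 were higher in HFD-75% (Angptl4, Pdk4, Zbtb16, Fkbp5 and Glul), 1 was lower (Per1) and 18 did not pass, with a median of 0.12, where 2.69% of all genes were higher and 2.88% lower. Angptl4 and Pdk4 are also in the PPAR list and Per1 in the clock list. Zbtb16, a transcription factor that glucocorticoids induce, ranged from 123 to 277 CPM (median 178) in HFD-75% and from 72.1 to 133 (median 103) in HFD-U (log2 fold change 0.80, SE 0.19, adjusted p = 0.434). Fkbp5, a co-chaperone of the glucocorticoid receptor, ranged from 115 to 269 CPM (median 187) and from 53.9 to 145 (median 114), a log2 fold change of 0.73 (SE 0.23, adjusted p = 0.558). For each of them 4 of the 6 HFD-75% mice were above all HFD-U mice. Glul, which makes glutamine, had means of 837 ± 218 and 593 ± 136 CPM (log2 fold change 0.50, SE 0.18, adjusted p = 0.720). Of the genes that did not pass, Klf9 (243 ± 41.5 and 246 ± 33.8 CPM) and Mt1 (41.0 ± 8.30 and 38.7 ± 15.1 CPM) were nearly level. Others differed more in both directions without passing. Their log2 fold changes included 0.51 for Cdkn1a, 0.37 for Klf15, 0.36 for Tsc22d3, -0.24 for Sgk1 and -0.52 for Nfkbia. Of the 24 genes tested, 17 had a positive fold change and 7 a negative one.

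Other genes led the list without belonging to these groups. Klf10, a TGF-beta-inducible zinc finger factor also counted among immediate early genes, ranged from 20.4 to 46.8 CPM (median 29.5) in HFD-75% and from 10.2 to 22.9 (median 13.5) in HFD-U, and 5 of 6 HFD-75% mice were above all HFD-U mice (log2 fold change 1.09, SE 0.22, adjusted p = 0.229). Pnpla3, a lipid droplet hydrolase, ranged from 3.42 to 17.5 CPM and from 1.12 to 4.06 (log2 fold change 1.83, SE 0.39, adjusted p = 0.355). Rnase13 ranged from 1.58 to 9.81 CPM and from 0.649 to 2.29 (log2 fold change 2.13, SE 0.41, adjusted p = 0.207). In both of them replicate 1 was the lowest HFD-75% mouse and the only one within the HFD-U range. Arid5a, an RNA-binding protein, did not overlap between the groups, at 4.5 to 10.4 against 1.65 to 3.96 CPM (log2 fold change 1.07, SE 0.24, adjusted p = 0.395). A pair of further lncRNAs was in this set. Gm32006 (2.11 and 0.942 CPM, log2 fold change 1.15, SE 0.26) shares 15295 bases, introns included, with Mlycd on the other strand, at 38.0 and 30.1 CPM. Gm32006 passed in 7 of the 12 fits without 1 mouse and had too few counts to be tested in the rest. Gm31305 (16.1 and 11.6 CPM, 0.48, SE 0.11) lies wholly within Pde4dip on the other strand, at 3057 and 2733 CPM. Mlycd and Pde4dip also had the higher mean in HFD-75%, and reads from any shared exons cannot be assigned without the strand setting.

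Among the genes lower in HFD-75%, Coq10b, which chaperones coenzyme Q in mitochondria, had the smallest p after Ciart. It ranged from 8.15 to 12.7 CPM (median 9.87) in HFD-75% and from 13.3 to 17.8 (median 16) in HFD-U, with no overlap (log2 fold change -0.68, SE 0.12, adjusted p = 0.160). Of the macrophage markers, 0 of the 7 tested passed, and their summed level ranged from 37.3 to 98.2 CPM in HFD-75% and from 47.6 to 98.6 in HFD-U. Inmt, an amine methyltransferase, had means of 25.2 ± 3.77 and 40.4 ± 7.81 CPM (log2 fold change -0.68, SE 0.14, adjusted p = 0.229). Ppat, the first enzyme of purine synthesis, had 24.3 ± 2.58 and 35.1 ± 5.54 (log2 fold change -0.53, SE 0.12, adjusted p = 0.355). Angptl2, a secreted relative of Angptl4, was lower and did not overlap, at 16.1 to 22.5 against 24.5 to 29.3 CPM (log2 fold change -0.41, SE 0.10, adjusted p = 0.434), and it lies wholly within Ralgps1 on the other strand (3.83 and 4.15 CPM). Jade1 (-0.44), Gm30794 (-0.63) and 1110019D14Rik (-0.94) were also among the 12 lower genes with the smallest p, each at an adjusted p of 0.395 to 0.434.

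The myogenic factors and neuromuscular junction genes were split, with 4 of 29 higher (Myod1, Myog, Chrnb1 and Hdac4), 3 lower (Hdac9, Lrp4 and Ache) and a median of 0.03, beside 2.69% and 2.88% of all genes. Myog, which drives the terminal differentiation of muscle cells, ranged from 1.84 to 6.32 CPM (median 3.23) in HFD-75% and from 1.40 to 1.90 (median 1.55) in HFD-U. Only replicate 1 of HFD-75% was within the HFD-U range, and the log2 fold change was 1.12 (SE 0.27, adjusted p = 0.432). Myod1, the fast-fibre myogenic factor, ranged from 13.9 to 34.9 CPM (median 21.5) and from 7.83 to 21.5 (median 10.4), with a log2 fold change of 0.97 (SE 0.25, adjusted p = 0.468). Lrp4, the agrin receptor of the synapse, went the other way, at 7.07 ± 2.75 and 11.7 ± 3.90 CPM (log2 fold change -0.73, SE 0.26, adjusted p = 0.698). Chrnb1, the β subunit of the acetylcholine receptor, was at 39.3 ± 4.42 and 32.4 ± 5.13 CPM (log2 fold change 0.28), and Ache, which breaks acetylcholine down, at 26.8 ± 3.65 and 31.9 ± 3.54 (log2 fold change -0.25).

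In the Notch pathway, 3 of 22 tested members were higher, beside 2.69% of all genes, the ligand Dll1 (3.66 ± 0.758 and 2.55 ± 0.561 CPM, log2 fold change 0.51) and the targets Hey1 (5.75 ± 1.30 and 3.68 ± 1.11, 0.64) and Nrarp (6.13 ± 1.25 and 3.86 ± 1.42, 0.66). The nuclear partner Rbpj was lower (19.9 ± 3.22 and 24.5 ± 3.93 CPM, log2 fold change -0.30), and their adjusted p ranged from 0.598 for Hey1 to 0.829 for Rbpj. Dll1 passed in 8 of the 12 fits without 1 mouse. Of 32 immediate early genes, 4 were higher (Klf10, Zfp36l1, Ccn1 and Btg1) and 3 lower (Csrnp1, Zfp36 and Nr4a1), with a median of 0.02, beside 2.69% and 2.88% of all genes. Zfp36 and Zfp36l1, relatives that both speed the decay of AU-rich mRNA, differed in opposite directions, 18.6 ± 5.29 against 29.6 ± 8.11 CPM for Zfp36 (log2 fold change -0.67, adjusted p = 0.556) and 24.2 ± 3.84 against 16.4 ± 4.25 for Zfp36l1 (0.56, adjusted p = 0.526). Of 7 MAPK phosphatases, Dusp10 was lower (25.6 ± 9.28 and 45.2 ± 14.9 CPM, log2 fold change -0.82, adjusted p = 0.529) and the other 6 did not pass.

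**Figure D3:**
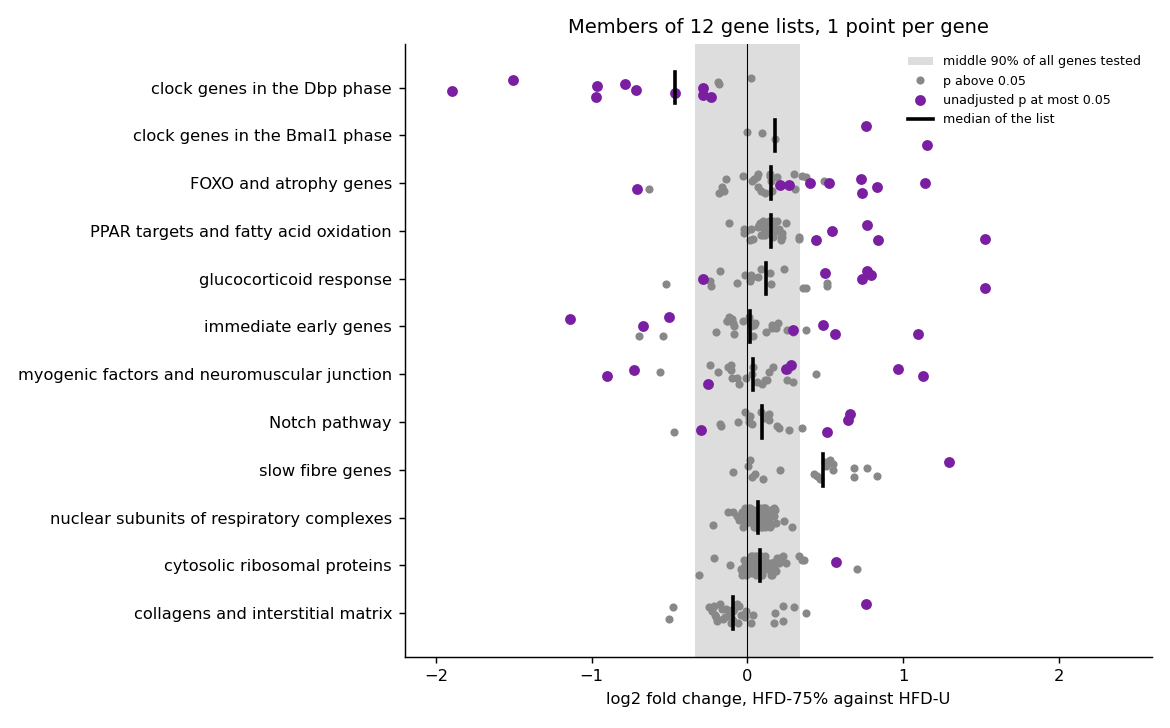
Log2 fold change (horizontal axis, HFD-75% against HFD-U) of each tested member of 12 gene lists, with purple points for an unadjusted p of at most 0.05, a black bar at the list's median and a grey band for the middle 90% of all genes tested. The Dbp-phase genes lie to the left, with a median of -0.47, and the slow fibre genes to the right, with a median of 0.48 but only 1 purple point. The other lists have medians between -0.09 (collagens) and 0.18 (Bmal1 phase).

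Fibre type did not differ beyond its spread. The 4 adult myosin heavy chain transcripts, as shares of their summed counts per length, were led by Myh4 of type 2B fibres at 84.1% ± 15.2 in HFD-75% and 85.0% ± 10.1 in HFD-U (n = 6 each, exact permutation p = 0.922). Myh1 of type 2X took 9.69% ± 8.94 and 8.67% ± 5.65 (exact permutation p = 0.829), and Myh2 of type 2A 6.00% ± 6.31 and 6.16% ± 4.78 (exact permutation p = 0.968). Myh7 of slow fibres took 0.207% ± 0.162 and 0.151% ± 0.122 (exact permutation p = 0.502). The adjusted p over the 4 was 0.968, and the smallest p that 924 arrangements of 6 against 6 allow is 0.0022. HFD-75% replicate 1 stood apart with 54.2% Myh4, 27.0% Myh1 and 18.5% Myh2, while the other 5 mice of its group had 84.8% to 95.2% Myh4.

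Slow-fibre genes had a median log2 fold change of 0.48, about as far from 0 as that of the clock genes of the Dbp phase. Of the 20, 19 were above 0, but only 1, Lrrc52, was called higher, beside 2.69% of all genes. The spread was wide, since Myh7 ranged from 18.2 to 279 CPM in HFD-75% and from 14.6 to 184 in HFD-U (log2 fold change 0.68, SE 0.56, adjusted p = 1), and Lrrc52 from 2.52 to 17.7 and from 1.24 to 7.90 (log2 fold change 1.30, SE 0.52, adjusted p = 0.791). The highest Lrrc52 value was that of HFD-75% replicate 1, without which the log2 fold change was 0.85 and did not pass, and the gene passed in 7 of the 12 fits without 1 mouse. In a piece of muscle, more slow fibres and more of these transcripts per fibre cannot be told apart, and the same holds for every cell type below. Of 17 fast 2B genes none passed (median 0.10). Of 39 genes of excitation-contraction coupling, 1 was higher and 2 were lower, beside 2.69% and 2.88% of all genes. Camk2b was higher (142 ± 18.0 and 113 ± 14.9 CPM, log2 fold change 0.33), and Nfatc2 (10.5 ± 1.52 and 14.96 ± 4.49, -0.51) and Ryr3 (1.52 ± 0.642 and 4.19 ± 3.58, -1.47) were lower.

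**Figure D4:**
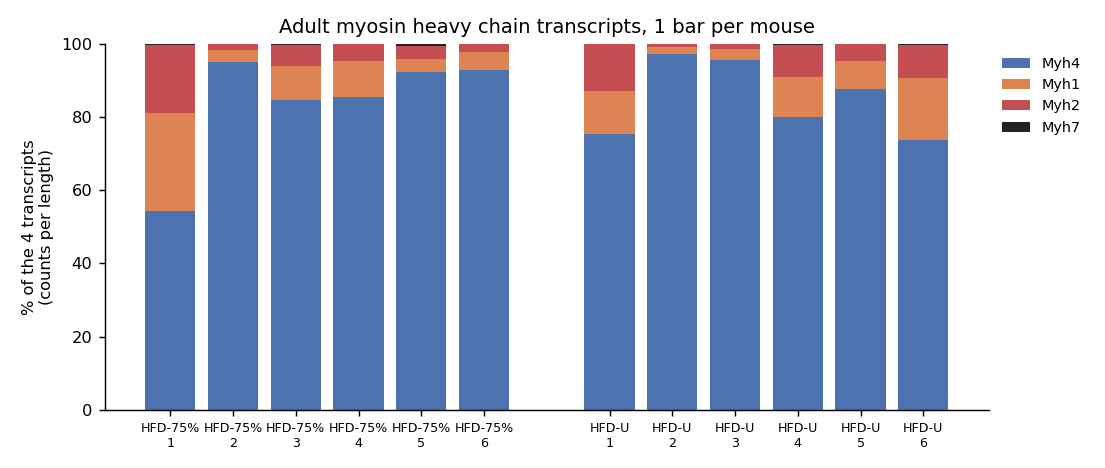
Share of the 4 adult myosin heavy chain transcripts (vertical axis, % of their summed counts per length) in each mouse, with 1 stacked bar per mouse, HFD-75% on the left and HFD-U on the right. HFD-75% replicate 1 has 54.2% Myh4, the lowest of the 12, and the remaining mice have 73.9% to 97.3%.

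Mitochondrial and protein-making genes were close between the groups. None of 84 nuclear subunits of the respiratory complexes passed (median 0.07, range -0.22 to 0.29), and none of 37 proteasome subunits did (median 0.04). Of 81 cytosolic ribosomal proteins, only Rps27a was higher (82.3 ± 38.9 and 55.4 ± 9.72 CPM, log2 fold change 0.57, adjusted p = 0.892), beside 2.69% of all genes, and the median was 0.08. Without HFD-75% replicate 5 the log2 fold change of Rps27a was 0.33, and it passed in 4 of the 12 fits without 1 mouse. Of 13 mitochondrially encoded mRNAs, 10 had a fold change below 0 and the median was -0.13. Yet the 2 that passed, ND3 and ND4L, were higher, beside 2.69% of all genes. ND3 had 92.0 CPM in HFD-75% replicate 6 and 7.79 to 26.8 in the other 5, against 7.29 to 19.7 in HFD-U (log2 fold change 1.30, SE 0.49, adjusted p = 0.744), and without replicate 6 the log2 fold change was 0.46 and did not pass. ND4L shares 7 bases with the far more abundant ND4 and ranged from 9.76 to 120 CPM and from 13.8 to 50.3 (log2 fold change 1.17, SE 0.46, adjusted p = 0.782). Without HFD-75% replicate 1 the log2 fold change of ND4L was 0.80 with no call, and it passed in 9 of the 12 fits without 1 mouse.

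Genes of sugar and lipid handling outside the PPAR list gave few calls, beside 2.69% of all genes higher and 2.88% lower. Of 37 glycolysis and glycogen genes, Fbp2, the muscle fructose-bisphosphatase, was higher (79.5 ± 22.2 and 59.7 ± 9.65 CPM, log2 fold change 0.41) and Pfkfb3, which makes the activator of phosphofructokinase, was lower (82.0 ± 35.1 and 157 ± 99.7, -0.94). Of 35 genes of insulin signalling and glucose uptake, 3 were higher (Tbc1d1, Ptpn1 and Grb10) and 1 was lower (Cish). Tbc1d1, a brake on GLUT4 transport, was at 125 ± 44.3 and 81.4 ± 23.1 CPM (log2 fold change 0.62, adjusted p = 0.709). Of 41 lipogenic and cholesterol genes, the cholesterol exporter Abca1 was higher (39.5 ± 9.29 and 27.8 ± 4.52 CPM, log2 fold change 0.50, adjusted p = 0.556) and the synthesis enzyme Nsdhl lower (3.21 ± 0.452 and 4.10 ± 0.378, -0.35, adjusted p = 0.876). Of 27 PGC-1, ERR and PPAR regulators, Ppard was higher (24.4 ± 3.77 and 19.7 ± 3.05 CPM, log2 fold change 0.30) and Tfb1m lower (5.75 ± 0.647 and 7.17 ± 1.17, -0.32). Of these calls, Nsdhl passed in 4 of the 12 fits without 1 mouse, Tfb1m in 6, Ppard in 7, Fbp2 in 9 and Pfkfb3 in 11, all but that without HFD-U replicate 3 (-0.57).

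The remaining lists had at most 4 called members, and 1 call in a list of about 35 is near the 2.69% of all genes that were higher and the 2.88% that were lower. Autophagy had 3 of 42 higher (Map1lc3a, Optn and Atg4d) and 1 lower (Atg5), collagens and matrix 1 of 35 higher (Eln, 22.6 ± 8.99 and 13.4 ± 4.09 CPM, log2 fold change 0.76), and basement membrane 1 of 19 higher (Col18a1, 0.58). Heat shock proteins had 1 of 35 lower (Cacybp, -0.20), interferon-stimulated genes 1 of 33 lower (Ifit3b, -0.50), and polyamine and amino acid enzymes 1 of 36 higher (Glul) and 1 lower (Azin1, -0.60). NRF2 targets had 1 of 29 higher (Srxn1, 0.31) and the myokine and TGF-beta family 1 of 20 higher (Smad7, 0.50). In the fits without 1 mouse, Ifit3b passed in 3 of the 12, Col18a1 in 4, Cacybp, Atg5 and Atg4d in 6 each, Srxn1 in 9 and Smad7 in 11. No member passed among 21 angiogenic factors or 25 genes of potassium and sodium transport. Their medians lay between -0.09 (collagens) and 0.09 (NRF2 targets and basement membrane).

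Markers of the muscle fibre were abundant, with a summed level of 137622 to 207080 CPM over the 12 mice. Of the 14 endothelial markers tested, 2 were higher, beside 2.69% of all genes. They were Egfl7 (42.0 ± 7.77 and 27.9 ± 7.44 CPM, log2 fold change 0.59, adjusted p = 0.526) and Cldn5 (10.4 ± 2.47 and 6.25 ± 2.24, 0.74, adjusted p = 0.526). The 14 markers had a median log2 fold change of 0.13, and 13 of them were above 0. Their summed level was 624 to 943 CPM in HFD-75% and 468 to 976 in HFD-U. No tested marker of adipocytes (6), blood cells (5), Schwann cells and nerve (6), smooth muscle and pericytes (8) or fibroblasts and tendon (8) passed, and the summed adipocyte level was 890 to 2750 CPM in HFD-75% and 1542 to 3121 in HFD-U. None of the 12 lymphocyte and neutrophil markers had enough counts to be tested, with a summed level of at most 1.35 CPM. The part of other cell types in the results above was not tested.

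The genes chosen for qPCR in the study were picked on these samples, so their list is not independent evidence of a direction. Of the 12, 4 were higher in HFD-75% (Klf10, Fkbp5, Foxo1 and Lars2) and none was lower, where 2.69% of all genes were higher. Lars2 was at 98.1 ± 19.9 and 77.68 ± 10.2 CPM (log2 fold change 0.34, adjusted p = 0.781) and is also counted among the rRNA-linked features. On a scale common to the 36 libraries, its means were 1307 ± 321 in NFD-C and 758 ± 599 in HFD-C, against 78.2 to 108 in the running groups. Without HFD-75% replicate 5 Lars2 did not pass (0.23). Fibin (27.6 ± 14.4 and 17.1 ± 7.67 CPM), Aldh9a1 (18.9 ± 6.20 and 25.3 ± 6.94) and Pik3r1 (63.4 ± 28.3 and 44.4 ± 16.9) missed the threshold at unadjusted p of 0.0502, 0.062 and 0.0838. Aldh1l1, Sesn1, Xdh, Phyhd1 and Car4 had log2 fold changes between -0.15 and 0.19.

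Set among all 6 groups, on a scale common to the 36 libraries, Ciart was highest in HFD-U and lowest in HFD-75%. Its means were 10.5 ± 7.84 CPM in NFD-C, 10.5 ± 6.52 in HFD-C, 10.4 ± 5.10 in HFD-25% and 5.83 ± 4.02 in HFD-50%, against 4.69 ± 1.99 and 17.4 ± 5.96 in the compared groups HFD-75% and HFD-U. The sedentary groups thus lay between the 2 groups compared here. Nr1d1 was also highest in HFD-U (73.2), with 45.2 ± 15.4 in HFD-C, 24.8 ± 8.45 in HFD-50% and 25.7 ± 8.27 in HFD-75%, so that HFD-50% and HFD-75% differed by less than their SD. Angptl4 was lowest in HFD-U (5.19 ± 0.757), with 7.09 ± 4.44 in HFD-C, 11.5 ± 6.73 and 24.2 ± 12.5 in HFD-25% and HFD-50%, and HFD-75% was at 14.8 ± 6.22. Pdk4 in HFD-U (1131 ± 175) was close to HFD-C (1143 ± 445), and HFD-75% (1923 ± 532) was close to HFD-50% (2076 ± 1080). These levels are a description and were not tested.

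**Figure D5:**
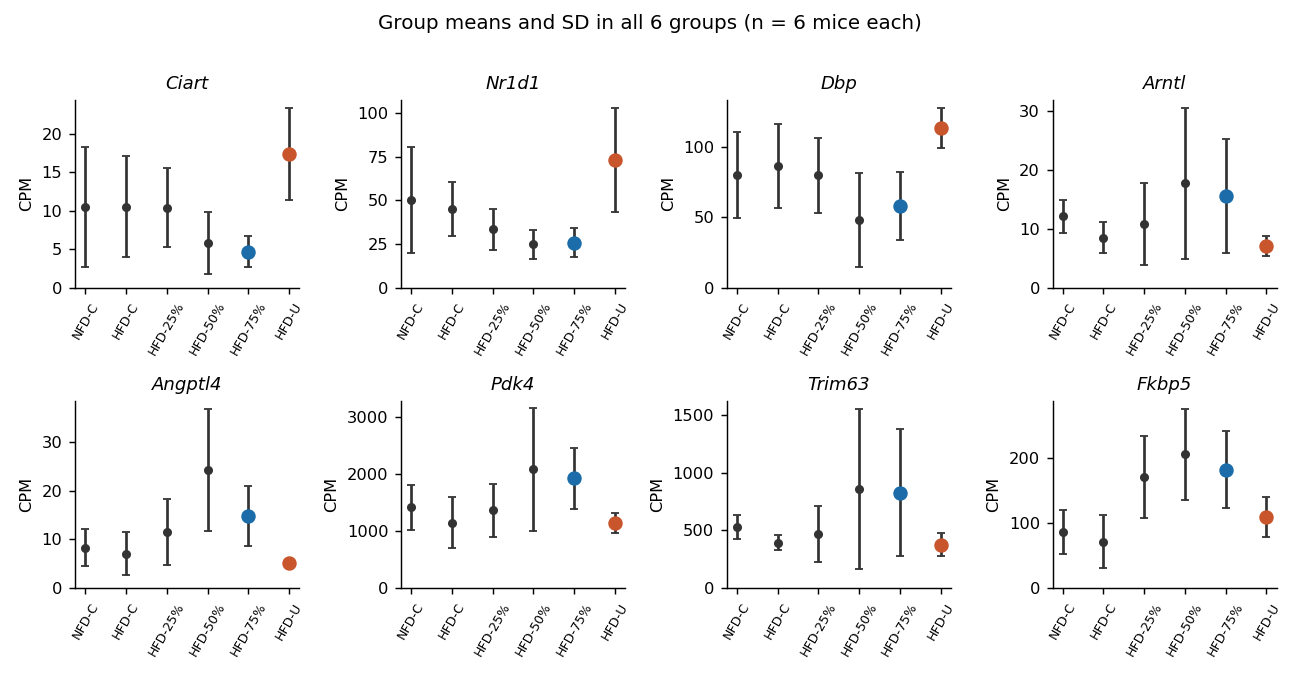
Mean CPM ± SD (vertical axis, n = 6 mice per group) of 8 genes in all 6 groups, with HFD-75% in blue and HFD-U in orange. HFD-U has the highest mean of the 6 for Ciart, Nr1d1 and Dbp and the lowest for Arntl, Angptl4, Pdk4 and Trim63, while Fkbp5 is lower still in the groups without a wheel.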

How the data were processed

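Gastrocnemius RNA was poly(A) selected and sequenced from both ends, and the reads were aligned by the authors with Hisat2 v2.0.5 and counted per gene with featureCounts v1.5.0-p3, and the deposited values are raw counts per gene, not normalized. Per the labels the build is mm10, while the deposited table names the chromosome accessions of GRCm39, and the coordinates given are those of the table. Whether counting used strand is not given in the sources used here. Of the 46893 features in the table, 20855 had no count in the 12 libraries. The 6 HFD-75% and 6 HFD-U libraries were fitted alone in R 4.3.3 with edgeR 4.0.16 (TMM factors, quasi-likelihood F-test, a minimum mean count of 25 per gene, Benjamini-Hochberg over all genes tested), after the script had been tested on simulated data. Alternatives used DESeq2 1.42.0, limma 3.58.1, other filters, scalings, sample sets and a block on the mouse number. CPM are counts scaled to libraries of equal size with the TMM factors. Single values per mouse were compared by exact permutation in SciPy 1.17.1.

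The lists (43, written by hand), the members of this comparison and the rules were chosen with earlier results of these data known. Named genes were the 12 with the smallest p in each direction, up to 3 called members of each list, the genes the study measured by qPCR, the adult myosin genes and 5 clock genes, and any other named gene was chosen after its values were seen. A few genes are not reported here, and the lists do not count them. Replicates of 1 group differed by 18.5 to 190 times the variance of sampling alone (chi-square per degree of freedom), so no pair held the same library. Nothing says that equal mouse numbers mark a shared litter, cage or day.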

Additional observations from a re-analysis of the deposited data

Results flagged for a closer look

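Dixon's test was applied to 200 groups of 6 mice, over the named genes, the myosin shares and the library measures. In 19 of them 1 mouse lay apart from the other 5, where chance flags about 1 in 20 groups (10 here). Values are CPM unless a share is named. In HFD-75%, replicate 1 was apart in Myh2 (10900, the others 1076 to 3243), in Myh1 (15750, the others 2166 to 5477) and in Cacybp (45.01, the others 53.8 to 58.7). It was also apart in the shares of Myh2 (18.5%, the others 1.56% to 5.65%), Myh1 (27.0%, the others 3.20% to 10.03%) and Myh4 (54.2%, the others 84.8% to 95.2%). Replicate 5 was apart in Fbxo32 (1561, the others 464 to 831) and Gm17251 (8.45, the others 4.34 to 5.84), and replicate 6 in ND3 (92.0, the others 7.79 to 26.8).

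In HFD-U, replicate 1 was apart in Fbp2 (40.2, the others 61.6 to 65.9), replicate 2 in Nsdhl (4.84, the others 3.77 to 4.08) and in Myod1 (21.5, the others 7.83 to 11.8), and replicate 6 in Nfatc2 (23.8, the others 11.4 to 14.3). Replicate 3 was apart in Hey1 (5.81, the others 2.82 to 3.68), Fibin (31.5, the others 10.3 to 18.2) and Tef (428, the others 340 to 369). Replicate 4 was apart in ND4L (50.3, the others 13.8 to 22.0), Aldh9a1 (38.8, the others 18.9 to 25.1) and Phyhd1 (45.2, the others 26.2 to 32.5).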

How the results depend on the processing

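The edgeR fit of the 12 mice placed 0 genes past an adjusted p of 0.05. DESeq2 placed 23 there (12 of them at least 2-fold), edgeR with no minimum count 8 (7), the block on the mouse number 2 (2, Nr1d1 and Ciart), the rRNA-linked share as a covariate 1 (1, Ciart), and leaving out single mice 0 to 4 (0 to 3), with 4 without HFD-75% replicate 1, 2 without replicate 6 (Ciart and Angptl4) and 1 without replicate 3 (Angptl4). With no minimum count, 1706 genes were at the unadjusted threshold (851 higher, 855 lower), and leaving out single mice gave 461 to 996 (221 to 449 higher, 240 to 547 lower). The FOXO and atrophy genes called higher were 4 in the fits over 24 and over 30 mice and 5 to 10 without single mice. The glucocorticoid genes called higher were 4 in those joint fits and 5 to 7 without single mice. Without single mice the other lists ranged from 2 to 3 (Bmal1 phase), 8 to 10 (Dbp phase) and 4 to 6 (PPAR), and their counts in the joint fits lay within these ranges. The causes were not tested.

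The difference in myosin shares turned with single mice left out, from -2.67 to 1.17 percentage points for Myh2, -2.44 to 2.67 for Myh1 and -3.14 to 5.06 for Myh4. Log2 fold changes of uncalled genes changed sign. With limma-voom those of Aldh1l1 and Car4 were 0.023 and 0.047, with the block that of Car4 was 0.015, and in mice 2 to 6 those of Myh2 and Myh1 were -0.23 and -0.16. Without single mice they ranged from -0.198 to 0.105 (Aldh1l1), -0.324 to 0.095 (Car4), -0.078 to 0.104 (Phyhd1), -0.030 to 0.251 (Sesn1), -0.653 to 0.544 (Myh2) and -0.302 to 0.597 (Myh1). Of 69 called genes that the naming rule took, 46 kept their call in every alternative that could be fitted. Of their 1561 values over all alternatives, 154 missed the threshold and 0 changed sign.

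No label says what equal mouse numbers share, and the check gave a mixed answer, so they were not taken as pairs. The deviations of same-numbered mice correlated over 0.1 in 3 of 6 pairs (0.60, 0.43 and 0.15 for numbers 1, 2 and 4), and 3 of 6 mice correlated best with their own number. With the block on the mouse number (replicate block), 873 genes were at the unadjusted threshold, against 659 without it. Depth left genes under a mean count of 25 untested, among them all lymphocyte and neutrophil markers.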

Other observations

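Genes outside every list and rule above also separated the groups, and those named here were chosen after their values were seen, among the 52 genes whose groups did not overlap (0.439% of the genes tested). Hdac5, a histone deacetylase that restrains MEF2 in muscle, was at 81.5 to 98.8 CPM in HFD-75% and 68.8 to 77.6 in HFD-U (log2 fold change 0.28, SE 0.08, adjusted p = 0.506). Pnrc1, a nuclear receptor coactivator, was at 79.5 to 183 and 60.7 to 78.0 CPM (log2 fold change 0.60, SE 0.18, adjusted p = 0.526). Cxcr4, the receptor of the chemokine CXCL12, was at 1.56 to 3.74 and 0.612 to 1.54 CPM (log2 fold change 1.02, SE 0.29, adjusted p = 0.526). Hnrnpu, an abundant nuclear RNA-binding protein, was at 197 to 255 and 161 to 193 CPM, a small difference (log2 fold change 0.26, SE 0.09, adjusted p = 0.702).

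In the other direction, Bcl2, which blocks cell death, was at 3.95 to 7.97 CPM in HFD-75% and 8.5 to 20.4 in HFD-U (log2 fold change -0.85, SE 0.22, adjusted p = 0.464). Mrtfa, the actin-sensing partner of SRF, was at 9.06 to 16.9 and 17.5 to 42.7 CPM (log2 fold change -0.74, SE 0.21, adjusted p = 0.526). Stat6, the factor that carries interleukin-4 signals, was at 13.2 to 18.7 and 20.2 to 24.1 CPM (log2 fold change -0.41, SE 0.11, adjusted p = 0.464). None of these genes passed the adjusted threshold in edgeR, and of them DESeq2 placed Hdac5 past it. Spread between mice was alike in the groups, with a median SD of log2 CPM over the genes tested of 0.237 in HFD-75% and 0.239 in HFD-U.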
